A study of Mus musculus with 9 samples.

Results

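Dermal papilla was compared with hair germ, its epithelial neighbour at the base of the resting hair follicle, on 6 of the 9 arrays of the series. The members were the 3 arrays titled as dermal papilla and the 3 titled as hair germ, matched by postnatal day 43, 56 and 69. The 3 bulge arrays served only as a reference level. All cells came from the back skin of virgin CD1 female mice of genotype Lef1RFP/K14H2BGFP, which carry a red reporter named for Lef1 and a green histone reporter named for keratin 14. Dermal papilla cells were sorted from a collagenase suspension as RFP positive and GFP negative, and cells positive for CD45, for CD117 or for integrin alpha 7 were gated out (the titles add CD34). Hair germ cells were sorted from the remaining skin after trypsin as RFP negative, GFP positive, CD34 negative and P-cadherin high, and bulge cells as GFP positive, CD34 positive and P-cadherin low. The labels call days 43, 56 and 69 early, middle and late telogen, the resting phase of the hair cycle. Each population had 1 array per day, so the 3 days stood in for replicates. The labels do not say whether mice were pooled or whether both populations of 1 day shared their animals, and p-values measure only the spread between these arrays.

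The dermal papilla is a small cluster of specialised fibroblasts under the follicle. In telogen it lies directly against the hair germ, a group of epithelial progenitors that is the first part of the follicle to divide when a new growth phase (anagen) begins. Signals pass both ways between these neighbours: WNT, FGF and activin-type signals and BMP inhibitors are known to favour activation of the germ, and BMPs are known to hold follicle stem cells at rest. A basement membrane lies between them.

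Each level below is log2(signal + 16) of the probe set that stood for the gene, and 3 levels in a row are days 43, 56 and 69. A difference is dermal papilla minus hair germ, with the standard error of a limma fit that had population and day as terms. A gene was called when its Benjamini-Hochberg adjusted p was below 0.05. Where no population is named, called higher or lower means in dermal papilla. A sorted population was measured in bulk, so fewer cells of a type and less RNA per cell cannot be told apart.

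Median probe set signals lay between 39.9 and 56.3 on the 9 arrays. The ratio of the 3' to the 5' GAPDH control signal, which rises as RNA or amplified product shortens, was 8.34 in day 43 hair germ, 7.90 in day 69 hair germ and 6.62 in day 43 dermal papilla. The other arrays lay between 2.97 and 5.09. Where a call below was lost in a fit that left out these 3 arrays, whose ratios lay above 6, the value is given at the end of the paragraph. That fit kept the bulge arrays for the spread and had 1 hair germ array, assumed to vary like the others. Among the sort genes, Lef1 was at 6.09, 6.81 and 8.86 in dermal papilla and 4.73, 5.40 and 4.85 in hair germ, and Krt14, the keratin whose promoter name the green reporter carries, at 4.41, 5.0 and 5.78 in dermal papilla and 13.19, 12.58 and 13.29 in hair germ. Neither gene overlapped between the populations, as held for 45.6% of all genes tested. The cells were sorted on reporters named for these genes, so this describes the sort and is no separate support for the identity of the cells. It does not bear on hair germ against bulge. Cd34, Cdh3 (P-cadherin), Ptprc (CD45), Kit (CD117) and Itga7 passed the filter on low values in too few arrays to be tested. Cdh3, whose protein the germ was sorted for, was at 4.93, 5.43 and 4.15 in dermal papilla and 5.67, 5.49 and 4.99 in hair germ, near the lower end of the scale in both, so it gave no check of that gate. The summed signal of 11 hair germ markers was 3305 to 5565 in hair germ and 562 to 1400 in dermal papilla, but 6026 to 6654 in bulge. These 11 markers thus went against the label as far as hair germ and bulge are concerned. The summed signal of 16 bulge stem cell markers went with it, at 29308 to 32189 in bulge and 16657 to 18664 in hair germ. Lhx2 and Sox9 are in both lists. The sums thus did not settle the label, and hair germ below means the arrays so titled. Lef1 (2.06) missed the threshold in a fit to all 9 arrays without the 3 of high GAPDH ratio.

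The populations differed across a large part of the transcriptome. Of 7429 genes tested, 2371 were called (31.9%), 972 higher in dermal papilla (13.1%) and 1399 lower (18.8%). Of the called genes, 2011 were at least 2-fold apart, which is 27.1% of those tested, and 1364 were at least 2-fold apart on each of the 3 days. At least 16-fold differences were found for 96 genes higher and 127 lower in dermal papilla. Of 7429 genes, 3391 (45.6%) had levels that did not overlap between the populations, and 4452 (59.9%) had the same sign on every day. The median difference over all tested genes was -0.13. With arrays centred on their medians or quantile normalised that median became 0.01 and 0.02, and the calls split into 1182 higher and 1175 lower, or 1203 higher and 1161 lower. A filter on low values also shaped the calls. Of 1005 genes that passed it in exactly 3 of the 6 arrays, 787 were called (78.3%), and a gene that passed only through the population where it is high had to differ. Counts over tested members of a list are therefore descriptions. With no filter, 996 of all 12384 genes named were called higher (8.04%) and 1468 lower (11.9%).

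**Figure D1:**
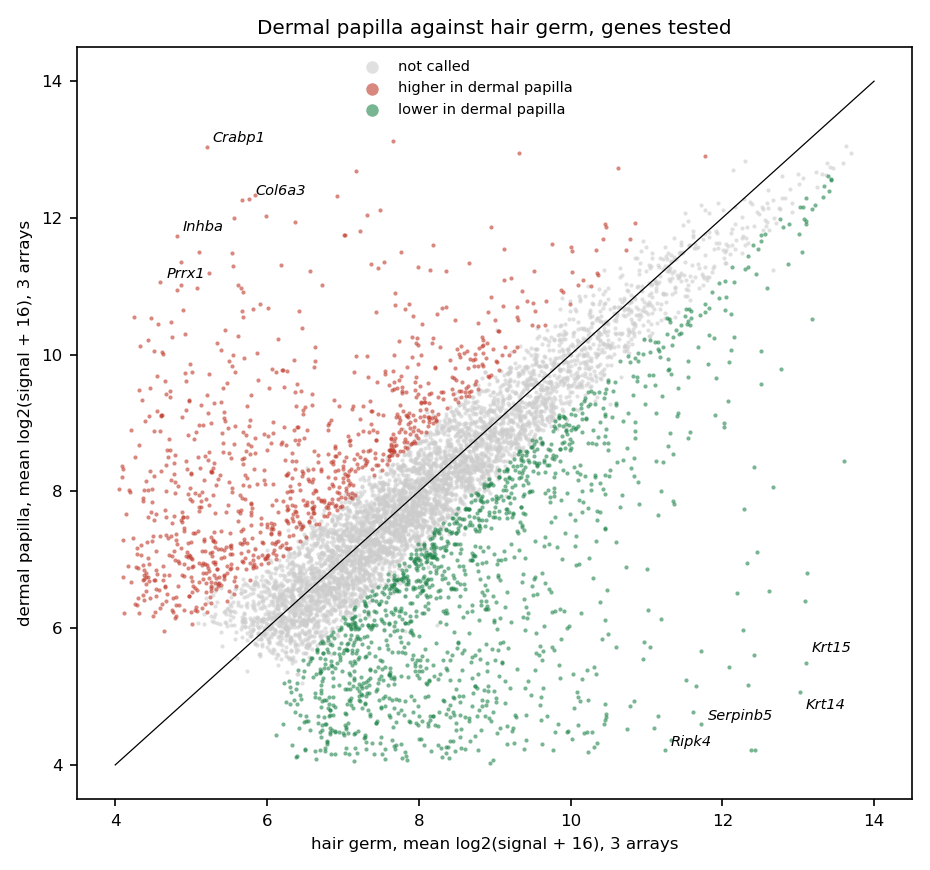
Mean log2(signal + 16) of 3 dermal papilla arrays (vertical) against that of 3 hair germ arrays (horizontal) for the 7429 genes tested, with the line of equal level. The 972 called genes above the line are red, the 1399 called below it green and the rest grey; Crabp1 and Krt14 lie far out at opposite ends.

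The genes with the largest excess in dermal papilla encoded a retinoic acid binding protein, secreted signals and matrix proteins. Crabp1, which binds retinoic acid in the cytoplasm, was at 13.25, 12.98 and 12.91 in dermal papilla and 4.12, 6.16 and 5.33 in hair germ. Its difference was 7.84 ± 0.40 (limma, adjusted p = 1.54e-06), a 229-fold excess on this scale. Inhba, the subunit of activin A, was at 11.78, 11.57 and 11.88 in dermal papilla and 4.95, 5.10 and 4.39 in hair germ, with a difference of 6.93 ± 0.28 (adjusted p = 1.08e-06). Every dermal papilla array stood more than 6 log2 units above the hair germ array of its day for both genes. Dkk2, a secreted modulator of WNT signalling, was nearly level in dermal papilla at 12.22, 12.53 and 12.27. In hair germ it was at 4.51, 6.11 and 6.92, lowest on day 43, so its difference of 6.5 ± 0.40 was widest then. Gdf10, a BMP-like ligand, was at 11.54, 11.75 and 11.22 in dermal papilla and 4.16, 5.99 and 5.17 in hair germ. The remaining 8 of the 12 largest were Pcolce, which enhances procollagen cleavage (difference 6.59 ± 0.38), the collagen VI chain Col6a3 (6.51 ± 0.34), Npr2, the receptor for C-type natriuretic peptide (6.49 ± 0.30), the transcription factors Prrx1 (6.47 ± 0.28) and Twist1 (6.29 ± 0.33), the matrix protein Dpt (6.44 ± 0.31), the cadherin Cdh11 (6.16 ± 0.45) and the laminin chain Lama2 (6.14 ± 0.31).

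The genes with the largest excess in hair germ were epithelial. Clca3a2, of the calcium-activated chloride channel regulator family, was at 4.09, 4.04 and 4.53 in dermal papilla and 12.37, 12.03 and 12.89 in hair germ, and its difference was -8.21 ± 0.25 (adjusted p = 4.7e-07). Serpinb2, a protease inhibitor of epithelia, was at 4.05, 4.35 and 4.25 in dermal papilla and 11.96, 12.19 and 12.99 in hair germ. Both were also below their hair germ level in bulge, where Clca3a2 was at 10.45, 9.59 and 9.66 and Serpinb2 at 8.93, 7.80 and 9.01. Krtdap, a keratinocyte differentiation gene, showed the same order, at 10.27, 11 and 12.71 in hair germ and 8.2, 7.77 and 7.74 in bulge, and was highest in hair germ on day 69. It belongs to a list of 12 epidermal differentiation markers whose summed signal in hair germ was 25613, 23755 and 51717, against 4633 to 7535 in dermal papilla and 14623 to 18569 in bulge. Of the 8 tested, 6 were called lower in dermal papilla and 0 higher, but 4 of the 8 had passed the filter through the germ arrays alone. The part of differentiating epidermal cells in the hair germ results was not tested. The keratins Krt14 (-7.96 ± 0.31), Krt15 (-7.61 ± 0.62) and Krt5 (-6.70 ± 0.36) and the hemidesmosome collagen Col17a1 (-7.17 ± 0.39) followed. The others were Serpinb5 (-7.13 ± 0.34), the kinase gene Ripk4 (-7.02 ± 0.31), Pof1b (-6.84 ± 0.32), Dmkn, which encodes the secreted protein dermokine (-6.65 ± 0.33), and Dst, which encodes a cytoskeletal linker (-6.81 ± 0.34). Of the 4 kept probe sets of Dst only 2 had this sign.

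**Figure D2:**
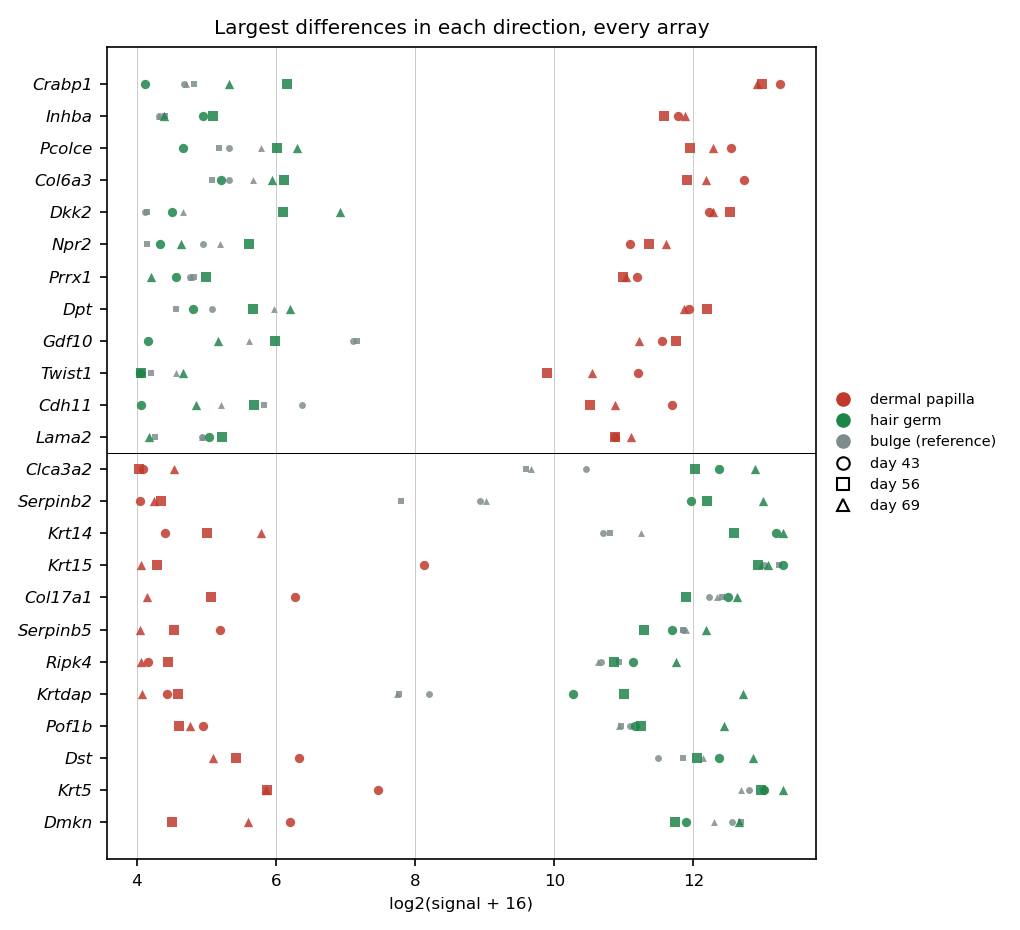
Level, log2(signal + 16), on every array (horizontal) of the 12 genes with the largest difference in each direction (rows), with colour for the population and marker shape for the day. Red and green points of a gene do not mix in any row; the dermal papilla point of Krt15 on day 43, at 8.13, stands apart from the other days.

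Among the BMP genes the ligands lay on the papilla side and the response genes were divided. Of 8 ligands on the array 6 were tested and these 6 were called higher in dermal papilla, 2 of them having passed the filter through the papilla arrays alone. With no filter, 6 of the 8 were called higher, against 8.04% of all genes named. Bmp4 was at 12.13, 12.02 and 12.20 in dermal papilla and 7.65, 7.79 and 7.02 in hair germ, with a difference of 4.63 ± 0.27 (adjusted p = 2.5e-06). Bmp7 (2.16 ± 0.32), Bmp6 (1.98 ± 0.47), Bmp1, a procollagen protease rather than a growth factor (1.51 ± 0.27), and Bmp2 (1.11 ± 0.31) were smaller. Bmp2 was the smallest of the 6, at 9.28, 10.71 and 10.25 in dermal papilla and 8.95, 9.56 and 8.40 in hair germ. Of 12 antagonist genes 7 were tested and 42.9% of these were called, against 31.9% of all genes tested. Among the 7, 2 had passed the filter through the papilla arrays alone. Bambi, a membrane pseudoreceptor of the BMP and TGF-beta pathways, was at 8.48, 9.03 and 9.95 in dermal papilla and 5.06, 5.98 and 4.61 in hair germ and was called higher, as was Fstl1 (4.22 ± 0.48). Fst, which encodes the activin and BMP binding protein follistatin, was called lower, at 5.72, 5.01 and 7.51 in dermal papilla and 7.70, 7.48 and 7.64 in hair germ. The gap of Fst closed from -1.98 on day 43 to -0.14 on day 69. The BMP receptor genes Bmpr1a (-0.19 ± 0.25) and Bmpr2 (-0.07 ± 0.29) were not called, and Acvr1 was called higher (1.47 ± 0.29). Bmp2 (1.09) and Fst (-1.06) missed the threshold without day 56; Bmp2 (0.74) without day 69.

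BMP response genes moved in both directions. Of 11 on the array 9 were tested, 2 were called higher and 4 lower in dermal papilla (66.7% called, against 31.9% of all genes tested). Here 1 of the 9 had passed the filter through the papilla arrays alone and 1 through the germ arrays alone. The inhibitory Smad6 (1.51 ± 0.40) and Hey1 (1.5 ± 0.45) were higher. Gata3, also a regulator of hair follicle epithelium, was called lower, at 4.57, 4.28 and 4.08 in dermal papilla and 9.85, 9.68 and 9.32 in hair germ, and Id4 (-3.10 ± 0.37), Id2 (-1.84 ± 0.41) and Id1 (-1.53 ± 0.43), inhibitors of helix-loop-helix factors, were lower too. Id3 (-0.61 ± 0.35), Smad7 (0.15 ± 0.34) and Msx2 (-0.24 ± 0.47) were not called. Id2 (-1.36) and Id1 (-0.80) missed the threshold without day 56; Smad6 (1.06) and Hey1 (0.84) without day 69. Smad6 (0.78) and Hey1 (0.93) missed it in a fit to all 9 arrays without the 3 of high GAPDH ratio.

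WNT genes split between the neighbours. Of 15 ligand genes on the array 6 were tested, and 2 of the 6 had passed the filter through the germ arrays alone. Wnt5a, a ligand known mainly for signalling without beta-catenin, was called higher, at 8.03, 8.01 and 10.19 in dermal papilla and 6.29, 6.25 and 6.74 in hair germ, and Wnt6 was higher as well (1.73 ± 0.30). Wnt4 was at 4.32, 5.36 and 4.31 in dermal papilla and 10.56, 9.03 and 9.24 in hair germ, with a difference of -4.95 ± 0.43 (adjusted p = 2.35e-05), and Wnt7b (-2.14 ± 0.40) and Wnt16 (-1.43 ± 0.31) were also lower in dermal papilla. Wnt10a, a ligand linked to hair regrowth, was not called, at 8.14, 8.09 and 8.56 in dermal papilla and 8.42, 7.99 and 7.79 in hair germ. Both R-spondin genes on the array, which encode amplifiers of WNT signalling, were called higher in dermal papilla. Both had passed the filter through the papilla arrays alone. When no filter was used, both were also called higher, against 8.04% of all genes named. Rspo2 was at 8.57, 9.65 and 10.19 in dermal papilla and 4.62, 5.06 and 4.49 in hair germ. Rspo1 had a difference of 4.63 ± 0.32. Their receptor gene Lgr5, a stem cell marker, was on the other side, at 4.47, 5.26 and 5.24 in dermal papilla and 7.58, 9.65 and 8.10 in hair germ, with a difference of -3.45 ± 0.35 (adjusted p = 6.07e-05). The germ array of each day exceeded the papilla array of that day for Lgr5. Wnt16 (-1.04) missed the threshold in a fit to all 9 arrays without the 3 of high GAPDH ratio.

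Secreted WNT antagonists were mostly papilla genes. Of 11 on the array 8 were tested, 5 were called higher and 1 lower in dermal papilla (75% called, against 31.9% of all genes tested). Here 2 of the 8 had passed the filter through the papilla arrays alone. Besides Dkk2, Notum, an enzyme that inactivates WNT proteins, was at 12.53, 12.25 and 12.18 in dermal papilla and 6.41, 7.64 and 6.73 in hair germ. Wif1, which binds WNT proteins, was at 11.16, 11.14 and 11.67 in dermal papilla and 6.47, 8.64 and 7.02 in hair germ, and Frzb (2.73 ± 0.30) and Sfrp2 (2.63 ± 0.33) were higher too. Dkk3 was the exception at -1.59 ± 0.29. Of 16 receptor genes 9 were tested. Fzd6, a frizzled receptor known for hair orientation, was at 5.18, 5.6 and 5.20 in dermal papilla and 10.26, 9.45 and 10.39 in hair germ, and Ror2, a receptor for Wnt5a protein, was called higher in dermal papilla (1.74 ± 0.30). Of 13 response genes 11 were tested, 5 were called higher and 5 lower (90.9% called, against 31.9% of all genes tested). Among the 11, 3 had passed the filter through the papilla arrays alone and 1 through the germ arrays alone. Nkd2 (4.13 ± 0.41), Nkd1 (1.23 ± 0.37), Apcdd1 (1.14 ± 0.28) and Lef1 (2.26 ± 0.50), with Notum, were higher, whereas Myc (-2.59 ± 0.45), Ccnd1 (-1.38 ± 0.27), Tnfrsf19 (-1.44 ± 0.36) and Nfkbia (-0.87 ± 0.27), with Lgr5, were lower. Axin2, a widely used readout of the pathway, was not called, at 7.73, 7.12 and 8.02 in dermal papilla and 8.48, 8.2 and 8.43 in hair germ. Nfkbia (-1.01) missed the threshold without day 43; Nkd1 (1.40), Apcdd1 (0.95), Ccnd1 (-1.18), Tnfrsf19 (-1.18) and Nfkbia (-0.99) without day 56; Nkd1 (0.77) and Nfkbia (-0.60) without day 69. Ror2 (1.16), Nkd1 (1.29), Lef1 (2.06) and Nfkbia (-0.52) missed it in a fit to all 9 arrays without the 3 of high GAPDH ratio.

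Of 12 FGF ligand genes on the array 3 were tested. Calls were made for 2 of the 3 (66.7%, against 31.9% of all genes tested), both higher in dermal papilla. Among the 3, 1 had passed the filter through the papilla arrays alone. When no filter was used, 6 of the 12 were called higher, against 8.04% of all genes named. The receptor genes were divided by type. Fgf7, a mesenchymal growth factor for epithelium, was at 7.97, 9.23 and 9.89 in dermal papilla and 4.99, 5.57 and 5.79 in hair germ, and its difference was 3.58 ± 0.30 (adjusted p = 1.96e-05). Fgf13, whose product is not secreted (1.90 ± 0.32), was the other called gene, and Fgf11 (0.80 ± 0.30) was not called. Fgf10 was not tested, at 5.79, 5.92 and 6.95 in dermal papilla and 4.72, 4.58 and 4.84 in hair germ. Fgfr2, whose epithelial splice form is the receptor for FGF7, was not called, at 10.61, 10.26 and 10.89 in dermal papilla and 11, 10.53 and 11.53 in hair germ. Fgfr1 was higher in dermal papilla (2.32 ± 0.35), as were Fgfr4 (1.48 ± 0.36) and Fgfrl1 (1.51 ± 0.42), and Fgfr3 was lower (-1.93 ± 0.25). Dusp6, a phosphatase gene induced by the MAP kinase pathway, was called lower, at 5.77, 5.11 and 6.02 in dermal papilla and 7.34, 8.23 and 7.86 in hair germ, and Spred1, an inhibitor of that pathway, was higher (1.68 ± 0.33). Fgfr4 (1.26) missed the threshold without day 56; Fgfrl1 (0.93) without day 69. Fgfrl1 (0.91) and Spred1 (1.19) missed it in a fit to all 9 arrays without the 3 of high GAPDH ratio.

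Called activin and TGF-beta ligand genes were on the papilla side, and the receptor genes were divided. Of 7 ligand genes 5 were tested and 3 were called (60%, against 31.9% of all genes tested), all higher in dermal papilla. These were Inhba, Inhbb (1.59 ± 0.47) and Tgfb2, at 9.10, 9.11 and 7.98 in dermal papilla and 6.08, 6.63 and 5.89 in hair germ. Among the 5, 1 had passed the filter through the papilla arrays alone. When no filter was used, 3 of the 7 were called higher, against 8.04% of all genes named. The TGF-beta receptors Tgfbr1 (2.16 ± 0.24) and Tgfbr2 (1.97 ± 0.31) and the coreceptor Eng (3.59 ± 0.31) were higher in dermal papilla. The activin receptors Acvr1b, at 8.29, 8.26 and 8.09 in dermal papilla and 10.18, 10.30 and 10.48 in hair germ, and Acvr2a (-1.70 ± 0.26) were lower, and Acvr2b (0.56 ± 0.30) was not called. Tgfbi, a matrix protein gene named for its induction by TGF-beta, was at 7.90, 5.59 and 7.84 in dermal papilla and 12.41, 12.08 and 12.87 in hair germ, far higher in hair germ on every day. Ccn2 was also lower in dermal papilla (-1.24 ± 0.36) and Pmepa1 higher (1.40 ± 0.26). Ltbp1, which stores latent TGF-beta in the matrix, was higher in dermal papilla (3.08 ± 0.31), and Thbs1, an activator of latent TGF-beta, was lower (-2.45 ± 0.29). Inhbb (0.82) missed the threshold without day 43; Ccn2 (-0.68) without day 56; Inhbb (1.66) without day 69. Inhbb (-0.10) missed it in a fit to all 9 arrays without the 3 of high GAPDH ratio.

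Both insulin-like growth factor genes were called higher in dermal papilla, and the called EGF family genes were higher in hair germ. Both insulin-like growth factor genes had passed the filter through the papilla arrays alone. When no filter was used, both were also called higher, against 8.04% of all genes named. Igf1 was at 8.34, 8.98 and 8.99 in dermal papilla and 4.94, 5.26 and 4.90 in hair germ and Igf2 at 7.39, 7.85 and 8.35 in dermal papilla and 5.19, 4.33 and 5.50 in hair germ. The receptor gene Igf1r was not called (-0.25 ± 0.31). Igfbp7 (3.41 ± 0.25), Igfbp6 (2.95 ± 0.44), Igfbp4 (2.87 ± 0.49) and Igfbp3 (2.10 ± 0.27), which bind these factors outside the cell, and Igf2r, a clearance receptor (1.93 ± 0.25), were all called higher in dermal papilla. No member of the IGF receptor and binding protein list was called lower, of 8 tested out of 11. Calls were made for 62.5% of the 8, against 31.9% of all genes tested. In the EGF family, Epgn, which encodes epigen, was at 4.68, 4.16 and 4.95 in dermal papilla and 9.33, 10.55 and 9.61 in hair germ, and Hbegf at 5.61, 5.34 and 6.07 in dermal papilla and 9.57, 9.50 and 10.26 in hair germ. Tgfa was lower in dermal papilla too (-1.32 ± 0.33), so that the 3 tested ligands of 7 on the array were called lower. This was so for 18.8% of all genes tested, and 1 of the 3 had passed the filter through the germ arrays alone. Because these 3 genes were low in dermal papilla, none passed the filter that asks for a level above the median on all 6 arrays. When no filter was used, 4 of the 7 were called lower, against 11.9% of all genes named. The receptors Erbb3 (-4.88 ± 0.31), Erbb2 (-1.95 ± 0.34) and Egfr (-1.90 ± 0.35) and the receptor inhibitor Lrig1 (-2.82 ± 0.30) had the same direction. Tgfa (-1.04) missed the threshold without day 43; Tgfa (-1.40) without day 56. Erbb2 (-1.17) missed it in a fit to all 9 arrays without the 3 of high GAPDH ratio.

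PDGF genes paired a germ ligand with papilla receptors. Pdgfa was called lower, at 6.24, 5.92 and 6.10 in dermal papilla and 6.8, 8.59 and 7.67 in hair germ. The receptor Pdgfra was at 10.51, 9.47 and 10.42 in dermal papilla and 4.12, 4.29 and 4.57 in hair germ, with a difference of 5.81 ± 0.31 (adjusted p = 1.63e-06), and Pdgfrb had a difference of 4.30 ± 0.34. Pdgfc (1.31 ± 0.36), Pgf (3.34 ± 0.64), Vegfc (3.07 ± 0.38) and Vegfb (1.63 ± 0.48) were higher in dermal papilla, and Vegfa was not called (0.88 ± 0.32). The chemokine gene Cxcl12 was lower in dermal papilla (-1.82 ± 0.37), its receptor Cxcr4 was higher (2.20 ± 0.35) and its scavenger receptor Ackr3 was lower (-3.51 ± 0.29). Cxcl12 was at 6.78, 6.56 and 6.70 in dermal papilla and 7.47, 9.17 and 8.85 in hair germ, closest on day 43. Gdnf, a ligand of the GDNF family, was called lower, at 4.12, 4.12 and 4.14 in dermal papilla and 8.05, 8.27 and 7.18 in hair germ, and the family's coreceptor Gfra3 was higher in dermal papilla (2.07 ± 0.32). Pdgfc (0.74) missed the threshold without day 43; Pdgfa (-1.06) without day 56; Vegfb (0.81) without day 69. Pdgfc (0.45), Vegfb (1.06) and Cxcr4 (1.92) missed it in a fit to all 9 arrays without the 3 of high GAPDH ratio.

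Notch genes were called on both sides. Of 3 tested ligand genes 1 was called (33.3%, near the 31.9% of all genes tested). Among the 3, 1 had passed the filter through the germ arrays alone. The called gene was Jag2, at 5.64, 5.38 and 4.87 in dermal papilla and 9.12, 9.6 and 8.45 in hair germ. Of 11 receptor and target genes on the array 6 were tested and 4 were called (66.7%, against 31.9% of all genes tested). Of the 6, 1 had passed the filter through the papilla arrays alone and 1 through the germ arrays alone. Hey1, a Notch target as well as a BMP response gene, was higher (1.5 ± 0.45), and Nrarp, a Notch target (-3.61 ± 0.27), Notch1 (-1.04 ± 0.29) and Notch3 (-1.02 ± 0.26) were lower in dermal papilla. Of 13 hedgehog genes on the array 8 were tested and 1 was called (12.5%, below the 31.9% of all genes tested). Among the 8, 1 had passed the filter through the papilla arrays alone. The called gene was Hhip, whose product binds hedgehog proteins. It was called higher, at 6.71, 6.88 and 8.23 in dermal papilla and 4.12, 4.67 and 4.66 in hair germ. Ptch1 (0.40 ± 0.41) and Gli1 (0.78 ± 0.46), targets of the pathway, were not called, and the ligand gene Shh was not tested. Guidance genes were called on both sides. Slit2, a secreted guidance cue, was at 10.58, 10.81 and 10.23 in dermal papilla and 4.16, 4.98 and 4.28 in hair germ, and its receptor Robo1 was higher in dermal papilla (0.80 ± 0.26). Sema3c (-3.35 ± 0.33), Efnb2 (-3.28 ± 0.28) and Sema4a (-3.12 ± 0.26) were higher in hair germ. Among guidance receptors Plxnd1 (2.76 ± 0.34) and Epha7 (2.73 ± 0.32) were higher in dermal papilla, and Plxnc1 (-2.69 ± 0.34) and Epha1 (-2.48 ± 0.46) lower. Notch1 (-0.75) and Robo1 (0.66) missed the threshold without day 43; Notch1 (-1.0), Notch3 (-1.08) and Robo1 (0.90) without day 56; Hey1 (0.84), Notch3 (-0.91) and Robo1 (0.84) without day 69. Hey1 (0.93), Notch1 (-0.71), Notch3 (-0.52) and Robo1 (0.88) missed it in a fit to all 9 arrays without the 3 of high GAPDH ratio.

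**Figure D3:**
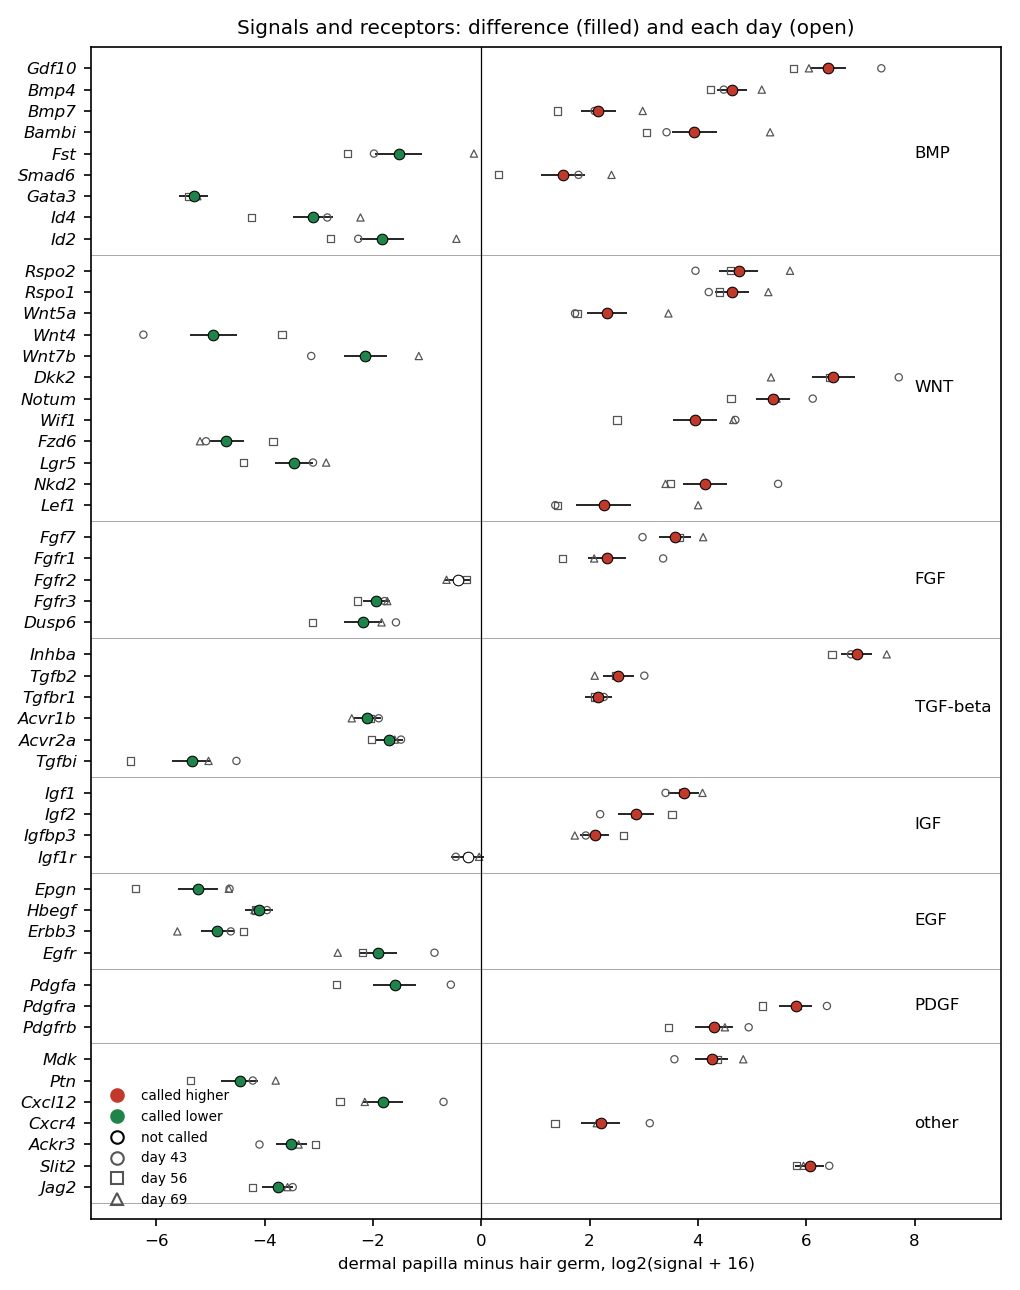
Difference, dermal papilla minus hair germ in log2(signal + 16) units (horizontal), for signalling genes by pathway. Filled points are the fitted difference with its standard error (red called higher, green called lower, white not called) and open markers the 3 days; Inhba and Dkk2 lie farthest right and Tgfbi, Gata3 and Epgn among the farthest left.

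Some related genes were called on opposite sides. Of 18 pairs listed by hand, 17 had both genes on the array and 8 had one member called higher and the other lower in dermal papilla, a count that describes these chosen pairs only. Of the heparin-binding growth factors, midkine (Mdk) was at 8.93, 9.93 and 11.01 in dermal papilla and 5.36, 5.57 and 6.17 in hair germ. Its only close relative, pleiotrophin (Ptn), was at 5.23, 4.55 and 5.28 in dermal papilla and 9.44, 9.91 and 9.07 in hair germ. The differences were 4.26 ± 0.31 and -4.46 ± 0.34, and neither gene's levels overlapped between populations, as held for 45.6% of all genes tested. The other 7 such pairs were Wnt5a and Wnt4, Cdh11 and Cdh1, Lama2 and Lama5, Lamb1 and Lamb3, Vim and Krt14, Sox2 and Sox9, and the syndecans Sdc2 (3.17 ± 0.28) and Sdc1 (-0.91 ± 0.29). Vim with Krt14 and Cdh11 with Cdh1 are distant relatives that mark the cell types. The retinoic acid binding proteins Crabp1 and Crabp2 (2.72 ± 0.33) were both higher in dermal papilla, and Fabp5, which also carries retinoic acid, was lower (-2.46 ± 0.25). Sdc1 (-0.97) missed the threshold without day 56; Sdc1 (-0.59) without day 69. Sdc1 (-0.51) missed it in a fit to all 9 arrays without the 3 of high GAPDH ratio.

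Components of the basement membrane between the neighbours were divided by chain. Of 23 genes on the array 20 were tested, 9 were called higher in dermal papilla and 8 lower (85% called, against 31.9% of all genes tested). Here 5 of the 20 had passed the filter through the papilla arrays alone and 5 through the germ arrays alone. The laminin chains Lama2, Lama4 (2.68 ± 0.31), Lamb1 (2.67 ± 0.36) and Lamb2 (1.25 ± 0.27) were higher. The chains Lama3 (-3.89 ± 0.27) and Lamb3, at 4.77, 4.06 and 4.56 in dermal papilla and 10.26, 10.49 and 9.79 in hair germ, which are parts of the laminin that anchors epithelia, and Lama5 (-2.08 ± 0.35) were lower. Collagen IV showed the same division: Col4a1 was at 11.84, 11.19 and 11.05 in dermal papilla and 7.17, 8.37 and 7.09 in hair germ, and its partner Col4a2 had a difference of 3.47 ± 0.33. Col4a5 was at 4.92, 4.50 and 4.79 in dermal papilla and 9.20, 8.52 and 10.09 in hair germ, and its partner Col4a6 had a difference of -3.63 ± 0.32. Both nidogens, which link laminin to collagen IV, were higher in dermal papilla, Nid1 with a difference of 4.72 ± 0.35 and Nid2 of 2.07 ± 0.32, and agrin (Agrn) was lower (-1.97 ± 0.25). Lamc1 (0.26 ± 0.32) and perlecan (Hspg2, -0.07 ± 0.34) were not called. Lamb2 (1.13) missed the threshold without day 56.

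Genes for collagens and for collagen processing were higher in dermal papilla almost throughout. Of 21 on the array 17 were tested, 15 were called higher and 1, Col12a1 (-1.17 ± 0.33), lower. Of the 17, 5 had passed the filter through the papilla arrays alone; with no filter 17 of the 21 were called higher. The median difference over the 21 was 2.45, against -0.13 over all genes named on the array. Col3a1 was at 13.11, 12.47 and 12.47 in dermal papilla and 6.28, 8.02 and 7.21 in hair germ, and Loxl1, which crosslinks elastin, at 10.10, 9.96 and 10.56 in dermal papilla and 4.23, 4.61 and 4.47 in hair germ. Col1a1 was low in hair germ, at 4.75, 6.45 and 6.03, against 8.74, 7.52 and 8.33 in dermal papilla, and its difference was 2.45 ± 0.48. Versican (Vcan), a proteoglycan long used to mark the papilla, was at 10.82, 10.18 and 11.93 in dermal papilla and 4.69, 5.10 and 5.44 in hair germ, and Spon1 (6.04 ± 0.25) and biglycan (Bgn, 5.12 ± 0.36) were higher too. Fibronectin (Fn1) ran the other way, at 6.0, 6.18 and 7.69 in dermal papilla and 8.75, 10.81 and 8.91 in hair germ, as did Thbs1 and Postn (-1.15 ± 0.26). Among matrix proteases Fap (5.95 ± 0.42), Mmp16 (3.33 ± 0.30) and Adamts5 (3.06 ± 0.59) were higher in dermal papilla, and Plat (-2.87 ± 0.28), Mmp3 (-2.35 ± 0.30) and Adamts1 (-2.16 ± 0.29) lower. Col12a1 (-0.99) missed the threshold without day 43; Col12a1 (-1.25) and Postn (-1.04) without day 56. Col12a1 (-1.23) and Col1a1 (1.18) missed it in a fit to all 9 arrays without the 3 of high GAPDH ratio.

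Adhesion genes were called on both sides. Of 11 mesenchymal cadherin and gap junction genes on the array 8 were tested, 5 were called higher and 2 lower in dermal papilla. These calls were 87.5% of the 8, against 31.9% of all genes tested. Here 3 of the 8 had passed the filter through the papilla arrays alone and 1 through the germ arrays alone. Cdh11 and N-cadherin (Cdh2, 2.08 ± 0.36) were higher, Pcdh7 (-2.09 ± 0.33) and Cdh13 (-0.96 ± 0.26) were lower, and the connexin gene Gja1 was not called (-0.63 ± 0.28). E-cadherin (Cdh1), at 4.92, 4.57 and 4.64 in dermal papilla and 10.77, 11.10 and 11.59 in hair germ, was higher in hair germ. Of 23 desmosome and junction genes 15 were tested, 12 were called lower in dermal papilla and 0 higher. Of the 15, 8 had passed the filter through the germ arrays alone. With no filter, 16 of the 23 were called lower, against 11.9% of all genes named. Desmoplakin (Dsp, -6.07 ± 0.34), Pkp1 (-6.29 ± 0.35), Dsg2 (-5.02 ± 0.28) and claudin 1 (Cldn1, -5.0 ± 0.31) led that list. The hemidesmosome integrin chains Itgb4 (-3.77 ± 0.36) and Itga6 (-2.62 ± 0.25) were lower, and Itgb1 was not called (-0.13 ± 0.31). Of 22 keratins and other intermediate filament genes 11 were tested and 100% of these were called, against 31.9% of all genes tested. Among the 11, 5 had passed the filter through the germ arrays alone. When no filter was used, 13 of the 22 were called lower, against 11.9% of all genes named. The 10 tested keratins were called lower. Vimentin (Vim), at 13.18, 12.76 and 12.92 in dermal papilla and 8.41, 10.54 and 9.03 in hair germ, was called higher. The suprabasal keratins Krt1 and Krt10 were part of the hair germ samples, at 11.49, 10.83 and 12.24 and 13.38, 13.06 and 14.38. Cdh13 (-0.93) missed the threshold without day 56. Cdh13 (-1.35) missed it in a fit to all 9 arrays without the 3 of high GAPDH ratio.

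Transcription factor genes followed the same line with exceptions. Of 29 mesenchymal and papilla factors on the array 16 were tested, 14 were called higher in dermal papilla and 2, Foxp1 (-2.82 ± 0.35) and Snai2 (-1.16 ± 0.32), lower. Of the 16, 9 had passed the filter through the papilla arrays alone. With no filter, 18 of the 29 were called higher, against 8.04% of all genes named. Prrx1 was at 11.18, 10.98 and 11.03 in dermal papilla and 4.57, 4.99 and 4.21 in hair germ. Ebf1 (5.43 ± 0.33), Zeb2 (4.83 ± 0.42), Prrx2 (4.49 ± 0.29), Prdm1 (4.41 ± 0.31) and Tbx15 (4.24 ± 0.29) were also higher, and Sox2, a marker of papillae of some hair types, was at 7.91, 7.51 and 9.31 in dermal papilla and 6.13, 5.22 and 4.79 in hair germ. Of 30 epithelial factors 22 were tested, 14 were called lower and 2 higher, but 10 of the 22 had passed the filter through the germ arrays alone. With no filter, 17 of the 30 were called lower, against 11.9% of all genes named. Trp63, the master regulator of stratified epithelium, was at 8.37, 6.2 and 4.98 in dermal papilla and 12.18, 11.81 and 12.58 in hair germ, its dermal papilla level lower on each later day. Grhl1 (-4.51 ± 0.31), Tfap2b (-3.82 ± 0.40), Lhx2 (-3.63 ± 0.42) and Sox9 (-2.44 ± 0.33) were lower too. Tcf7l1 (1.76 ± 0.26) and Tfap2a (0.80 ± 0.24), listed as epithelial, were called higher in dermal papilla. Of 23 Hox genes 11 were tested and 81.8% of these were called, against 31.9% of all genes tested. Here 2 of the 11 had passed the filter through the papilla arrays alone and 2 through the germ arrays alone. Hoxd9 (2.59 ± 0.31), Hoxc9 (2.36 ± 0.34), Hoxa9 (1.53 ± 0.30), Hoxd8 (1.30 ± 0.32), Hoxc8 (1.17 ± 0.25) and Hoxc6 (1.02 ± 0.29) were higher in dermal papilla and Hoxb4 (-1.59 ± 0.29), Hoxa5 (-1.51 ± 0.28) and Hoxa7 (-1.41 ± 0.37) lower. Tfap2a (0.78) and Hoxa7 (-1.03) missed the threshold without day 43; Snai2 (-0.87), Tfap2a (0.81), Hoxd8 (1.26) and Hoxc6 (0.96) without day 56; Snai2 (-1.05) and Hoxc6 (0.87) without day 69. Tfap2a (0.89) and Hoxa7 (-1.11) missed it in a fit to all 9 arrays without the 3 of high GAPDH ratio.

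Mitosis genes were higher in hair germ. Of 31 on the array 29 were tested and these 29 were called lower in dermal papilla, but 24 of them had passed the filter through the germ arrays alone. With no filter, 31 of the 31 were called lower, where 11.9% of all genes named were. The median difference over the 31 was -3.06. Mki67, the source of the Ki-67 proliferation antigen, was at 4.43, 4.54 and 5.83 in dermal papilla and 11.66, 10.16 and 10.70 in hair germ, with a difference of -5.91 ± 0.41 (adjusted p = 6.07e-06). Anln, which encodes a cleavage furrow protein, was at 4.10, 4.42 and 4.96 in dermal papilla and 10.89, 9.62 and 9.41 in hair germ, and Top2a, which encodes a topoisomerase, at 4.84, 5.20 and 5.79 in dermal papilla and 10.53, 9.55 and 9.50 in hair germ. Cdk1, the mitotic kinase, was at 4.09, 4.19 and 5.56 in dermal papilla and 8.76, 7.86 and 7.76 in hair germ. The germ arrays of all 3 days, day 43 in early telogen included, lay above every papilla array for these genes. In bulge Mki67 was at 7.05, 6.40 and 6.75 and Top2a at 6.66, 5.88 and 6.54, both below hair germ. The epidermal differentiation markers above were also higher in hair germ than in bulge, and their part in this result was not tested. Of the 29, 2 were still called under a filter that asks for a level above the median on all 6 arrays, which most members do not pass.

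Many mitosis genes share sequence motifs near the start site, and 4 windows are printed to show them. RefSeq start-site windows (build GRCm38.p6, 300 bases, 250 before the start and 50 after) were found for 25 of the 29 genes. The motifs searched on both strands were TTTGAA or TTCGAA, the core of the cell cycle homology region, and CCAAT; they do not overlap each other. Both lay within the last 120 bases in 16 of 27 windows of the mitosis genes (59.3%), in 431 of 32851 windows of all genes (1.31%) and in 0 of 21 windows of the DNA replication genes. A match is a description of letters, not of a bound site. The windows shown belong to the 4 mitosis genes with the largest differences that had both motifs; each is the 120 bases that end 50 bases after the start, 5′ to 3′ on the minus strand, with the motifs in capitals.
Top2a: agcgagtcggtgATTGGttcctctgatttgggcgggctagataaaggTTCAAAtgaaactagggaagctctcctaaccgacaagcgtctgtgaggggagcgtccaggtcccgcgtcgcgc
Cdc20: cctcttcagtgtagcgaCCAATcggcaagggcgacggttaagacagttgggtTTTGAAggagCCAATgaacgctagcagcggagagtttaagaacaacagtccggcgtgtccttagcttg
Ect2: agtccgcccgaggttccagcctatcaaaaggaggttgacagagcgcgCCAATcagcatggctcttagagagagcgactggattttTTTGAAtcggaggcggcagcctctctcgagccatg
Kif22: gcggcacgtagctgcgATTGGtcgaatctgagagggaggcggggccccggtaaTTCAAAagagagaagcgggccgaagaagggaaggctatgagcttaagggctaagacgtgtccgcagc
Top2a lies at chr11:99024140-99024259, Cdc20 at chr4:118437294-118437413, Ect2 at chr3:27153805-27153924 and Kif22 at chr7:127042371-127042490. Their differences were -4.58 ± 0.37, -4.58 ± 0.41, -4.15 ± 0.31 and -4.02 ± 0.26. Cdc20 encodes an activator of the anaphase-promoting complex, Ect2 a regulator of cytokinesis and Kif22 a chromosome-bound kinesin.

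DNA replication genes had the same direction with smaller differences. Of 24 on the array 19 were tested, 12 were called lower in dermal papilla and 0 higher (63.2% called, against 31.9% of all genes tested). Here 5 of the 19 had passed the filter through the germ arrays alone. When no filter was used, 14 of the 24 were called lower, against 11.9% of all genes named. Rrm2, the regulated subunit of ribonucleotide reductase, was at 4.46, 5.09 and 5.82 in dermal papilla and 10.34, 8.72 and 9.16 in hair germ, and Uhrf1 (-2.70 ± 0.37), Cdt1 (-2.58 ± 0.33) and Mcm3 (-1.47 ± 0.35) were lower as well. Pcna (-0.47 ± 0.41) and Mcm7 (-0.74 ± 0.26) were not called. Among cell cycle regulators Cdkn1c, the p57 inhibitor of cell division, was called higher, at 9.59, 7.41 and 8.6 in dermal papilla and 4.55, 4.98 and 4.85 in hair germ. Ccnd3 was higher in dermal papilla (1.98 ± 0.28), and Ccnd2 (-2.45 ± 0.26), Cdkn2b (-2.39 ± 0.40) and Cdkn1a (-1.64 ± 0.26) were lower. Mcm3 (-1.26) missed the threshold without day 56.

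Lists of general cell functions are read against the 31.9% of all genes tested that were called. Of 24 immediate early genes 22 were tested, and 11 were called (50%), 10 lower in dermal papilla and 1 higher. Fosl1 was at 5.16, 4.32 and 4.14 in dermal papilla and 7.97, 9.81 and 9.44 in hair germ and Atf3 at 7.01, 8.29 and 9.76 in dermal papilla and 12.24, 12.33 and 12.67 in hair germ, whereas Fos (-0.57 ± 0.28) and Jun (-0.61 ± 0.26) were not called. Papilla cells were released with collagenase and germ cells with trypsin after it, so enzyme and population cannot be told apart for these genes. Of 13 glycolysis genes tested 4 were called (30.8%, near the background), all lower, among them Pfkp (-3.22 ± 0.31) and the glucose transporter Slc2a1 (-2.46 ± 0.24). Of 21 oxidative phosphorylation genes 2 were called (9.52%, below it). Of 20 cytosolic ribosomal protein genes 8 were called (40%), each lower, a count that became 1 with quantile normalisation, 1 with no filter, 4 with median centring and 0 without day 56. Of 17 cholesterol synthesis genes 4 were called (23.5%, below the background): Sqle higher (1.06 ± 0.30) and 3 lower. Sqle (0.67) missed the threshold without day 43. Sqle (1.03) missed it in a fit to all 9 arrays without the 3 of high GAPDH ratio.

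**Figure D4:**
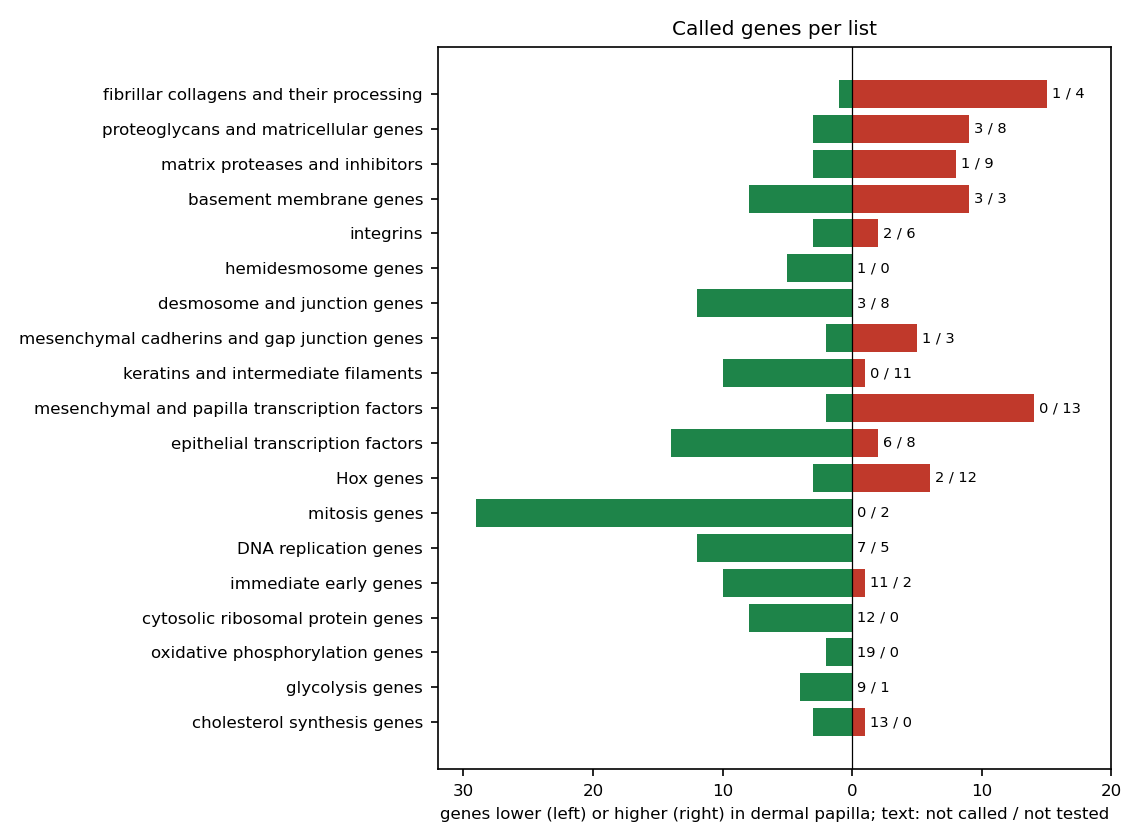
Number of genes called lower (green, left) and higher (red, right) in dermal papilla for 19 gene lists (rows); the text beside each bar gives members not called and members not tested. The 29 tested mitosis genes are on the left, and on the right are 15 of the 17 tested genes for collagens and their processing. These are counts over genes that passed the filter on low values.

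Markers of other cells were measured on both sides. The 15 keratinocyte markers on the array, all tested, were called lower in dermal papilla, but 9 of them had passed the filter through the germ arrays alone. With no filter the 15 were called lower too, against 11.9% of all genes named. The summed signal of the 15 in dermal papilla was 1267 on day 43, 316 on day 56 and 362 on day 69, against 49483 to 72916 in hair germ. The day 43 papilla array thus stood above the other papilla arrays in this sum, with Krt15 at 8.13, 4.29 and 4.06 and Krt5 at 7.46, 5.87 and 5.86. Not every member had this order: Krt14 was lowest on day 43, at 4.41, 5.0 and 5.78. All 15 were also called with day 43 left out. In the other direction, the summed signal of 19 papilla markers in hair germ was 730, 1527 and 872, against 35179 to 42974 in dermal papilla, and 7 of the 19 had a mean level below 5 in hair germ. All 17 tested papilla markers, which include Corin (4.50 ± 0.34), Prom1 (3.74 ± 0.40), Trps1 (3.29 ± 0.34) and Alpl (1.29 ± 0.35), were called higher in dermal papilla. Of these 17, 10 had passed the filter through the papilla arrays alone. With no filter, 18 of the 19 were called higher, against 8.04% of all genes named. The 7 sebaceous gland markers on the array summed to 4898 to 6911 in hair germ and 3119 to 5149 in dermal papilla. Their sum in bulge was 2124 to 2853. Among the 5 tested 1 was called higher and 1 lower (40%, against 31.9% of all genes tested). Alpl (0.89) missed the threshold without day 69. Alpl (1.32) missed it in a fit to all 9 arrays without the 3 of high GAPDH ratio.

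Of 10 melanocyte markers on the array 5 were tested and 3 were called (60%, against 31.9% of all genes tested), each lower in dermal papilla. Among the 5, 2 had passed the filter through the germ arrays alone. When no filter was used, 6 of the 10 were called lower, against 11.9% of all genes named. The summed signal of the 10 was 2418 to 5210 in hair germ, 491 to 882 in dermal papilla and 2349 to 3039 in bulge. Dct, which encodes a melanin synthesis enzyme, was at 6.19, 5.88 and 5.08 in dermal papilla and 10.44, 11.31 and 10.07 in hair germ, and Tyrp1 (-4.19 ± 0.30) and Pmel (-4.01 ± 0.31) were lower in dermal papilla too, whereas Mitf (-0.28 ± 0.24) and Ednrb (0.92 ± 0.31) were not called. Their source was not tested. The papilla sort removed CD117, a receptor that melanocytes carry, and the germ sort as labelled did not. Endothelial markers summed to 577 to 1186 in dermal papilla and 77.8 to 292 in hair germ. Of 10 on the array 2 were tested and 1, Plvap, was called (4.0 ± 0.29), higher in dermal papilla. Among the 2, 1 had passed the filter through the papilla arrays alone. When no filter was used, 2 of the 10 were called higher, against 8.04% of all genes named. Leukocyte markers summed to 124 to 671 in dermal papilla, which was depleted of CD45, and 551 to 965 in hair germ. Of 12 on the array 3 were tested, and 2 of these had passed the filter through the germ arrays alone. The antigen presentation genes H2-Aa (-2.90 ± 0.32) and Cd74 (-1.88 ± 0.32) were called lower in dermal papilla. Laptm5 was not called, at 5.14, 7.99 and 9.07 in dermal papilla and 6.35, 7.13 and 7.54 in hair germ. With no filter, 6 of the 12 were called lower, against 11.9% of all genes named. The part of these cells in the results above was not tested.

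As a reference level, bulge lay nearer to hair germ than to dermal papilla for 790 of the 972 genes called higher in dermal papilla and for 876 of the 1399 called lower. For the other 523 of the latter the bulge level was nearer to dermal papilla. The mitosis genes Mki67 and Top2a above were among these, and Wnt4, at 8.99, 8.82 and 8.31 in bulge, and Serpinb2 give bulge levels between the other populations. Krt15 in bulge, at 13.01, 13.23 and 12.96, was level with hair germ.

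Across the genes tested, the differences between the neighbours on the 3 days correlated. Of the 2011 called genes at least 2-fold apart, 1760 were so on day 43, 1697 on day 56 and 1799 on day 69, and the median size of the difference over called genes was 1.75, 1.59 and 1.82. The call itself used the mean and spread over these 3 days, so likeness of the days among called genes was partly fixed by it. Across genes, which are not independent replicates, Pearson's r of the day differences was 0.87 between days 43 and 56, 0.81 between days 43 and 69 and 0.86 between days 56 and 69. The days share no array. Each day is 1 array per population, so a change from day to day has no replicate and was not tested.

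For 285 genes the difference moved at least 4-fold from day 43 to day 69. The GAPDH ratio lay above 6 on day 43 in dermal papilla (6.62) and hair germ (8.34), and on day 69 in hair germ (7.90). Its part in these changes was not tested. Sostdc1, an inhibitor of BMP and WNT signals, moved most toward dermal papilla. Its level was 8.05, 9.41 and 11.37 in dermal papilla and 10.93, 10.16 and 9.91 in hair germ, so it stood higher in hair germ on day 43 and in dermal papilla on day 69. Spry2, a feedback inhibitor of FGF signalling, moved the other way, at 9.18, 8.04 and 7.66 in dermal papilla and 7.88, 8.91 and 9.96 in hair germ. Sox18, a papilla factor, was at 7.22, 7.57 and 9.96 in dermal papilla and 4.66, 5.03 and 4.62 in hair germ, highest in dermal papilla on day 69. The proteoglycan gene Sdc3 was at 6.73, 8.93 and 10.27 in dermal papilla and 6.56, 7.50 and 6.64 in hair germ, and Lef1 and Wnt5a also had their highest dermal papilla level on day 69. Of 42 genes at least 2-fold apart in opposite directions on days 43 and 69, 27 went from lower to higher in dermal papilla, 15 from higher to lower, and 0 were called. A gene that turned in this way could hardly be called, as the call rests on the same days. Sdc3 (1.90) missed the threshold without day 56; Sdc3 (0.79) without day 69.

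**Figure D5:**
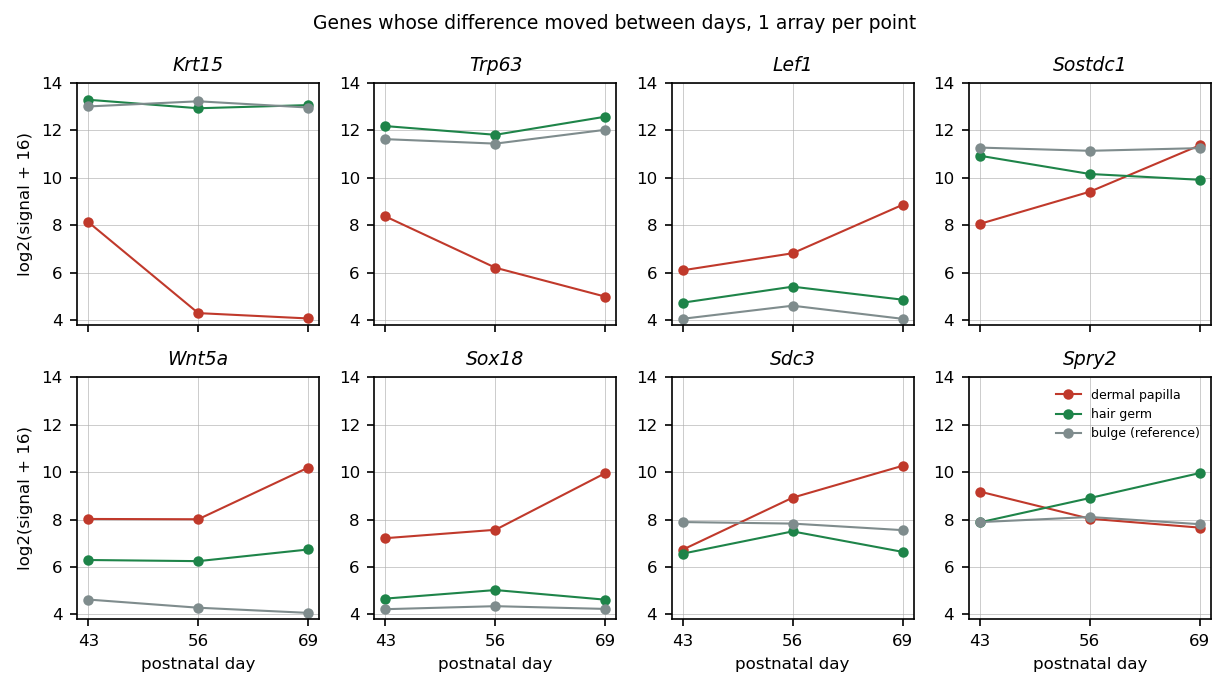
Level, log2(signal + 16), against postnatal day for 8 genes whose difference moved between days, with 1 array per point (red dermal papilla, green hair germ, grey bulge). The lines of Sostdc1 and Spry2 cross between days 43 and 69, in opposite senses, and Krt15 in dermal papilla starts at 8.13 on day 43.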

How the data were processed

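The authors deposited intensity values on a linear scale, computed from the scanned arrays as MAS5 probe set signals with GCOS per the submitters' processing notes. Versions and the scaling target are not given in the sources used here. Per the labels' protocols, RNA from sorted cells went through 2 rounds of amplification. Of 22690 probe sets 64 were controls, 20380 named 1 gene, 691 several and 1555 none. Values were taken as log2(signal + 16) with no further scaling. A probe set was kept when its signal exceeded the median of its array on 3 or more of the 6 arrays, and the brightest kept probe set stood for a gene, giving 7429 genes tested of 12384 named.

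The test was limma 3.58.1 in R 4.3.3, with population and day as terms, eBayes with a mean-variance trend (2 residual degrees of freedom), two-sided p-values and Benjamini-Hochberg adjustment over all genes tested. The steps were tested on simulated data. Bulge arrays were left out of the fit because their median SD over days was 0.18, against 0.29 in dermal papilla and 0.36 in hair germ. Same-day deviations of the 2 populations correlated across genes at 0.00, 0.19 and -0.10, so the days were not shown to pair the samples; day was kept as a term because the comparison is matched by day. Arrays give no count depth, and their number limits the precision.

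The members and the 65 gene lists were chosen with earlier results of these data known. Genes named were the 12 largest called differences in each direction with 1 sign on all days, list members led by called ones in order of size, their ligands or receptors, the paralog pairs, the sort genes and markers. Some list members, genes that moved between days, and bulge levels were named after their values were seen. Start-site windows came from RefSeq.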

Additional observations from a re-analysis of the deposited data

Results flagged for a closer look

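For 13 of the genes named above, Laptm5 not counted, dermal papilla stood above hair germ on 1 day and below it on another, and none of them was called. Each day has 1 array per population, so the difference between days was not tested. The differences, dermal papilla minus hair germ in log2(signal + 16) units, were widest apart for Sostdc1 (1.46 on day 69, -2.88 on day 43, 4.33 apart) and Spry2 (1.30 on day 43, -2.30 on day 69, 3.60 apart). The others were Gli1 (1.98 on day 69, -0.74 on day 56, 2.73 apart), Msx2 (1.29 on day 69, -1.41 on day 56, 2.70 apart), Ptch1 (1.63 on day 69, -0.87 on day 56, 2.50 apart), Pcna (0.82 on day 69, -1.64 on day 43, 2.46 apart), Id3 (0.43 on day 69, -1.44 on day 43, 1.87 apart), Hspg2 (0.80 on day 43, -0.85 on day 69, 1.65 apart), Smad7 (0.56 on day 43, -0.68 on day 56, 1.24 apart), Itgb1 (0.43 on day 69, -0.80 on day 43, 1.23 apart), Wnt10a (0.78 on day 69, -0.28 on day 43, 1.06 apart), Bmpr2 (0.30 on day 69, -0.62 on day 56, 0.93 apart) and Lamc1 (0.52 on day 56, -0.19 on day 43, 0.72 apart).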

How the results depend on the processing

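The 3 counts of called genes (2371, 972 higher, 1399 lower) stayed within 1.5 times under 13 of 14 alternatives. The filter that asked for a level above the median on all 6 arrays tested 5463 genes and called 1159, 411 higher and 748 lower, since it removes genes low in either population. Leaving out 1 day gave 1652 to 2331 calls, 697 to 949 higher and 955 to 1382 lower; of 226 called genes named in the text, 10 missed the threshold without day 43, 27 without day 56 and 15 without day 69. The fit without the replicate block gave 2390 calls, 2293 of them shared, and lost Hoxc6, Sdc1 and Sdc3 among the named genes. Signs turned with the mean over kept probe sets Bmpr1a (0.076) and Itgb1 (0.0017); with quantile normalisation Bmpr2 (0.067), Fos (0.11), Hspg2 (0.049) and Itgb1 (0.031); with median centring Bmpr2 (0.073), Hspg2 (0.076) and Itgb1 (0.022); with the filter asking for all 6 arrays Dst (0.46); without the arrays of high GAPDH ratio Gli1 (-0.55), Inhbb (-0.10), Ptch1 (-0.47) and Smad7 (-0.56). Leaving out 1 day moved Bmpr2 from -0.26 to 0.20, Hspg2 from -0.51 to 0.32, Itgb1 from -0.40 to 0.21, Msx2 from -1.0 to 0.34, Pcna from -1.11 to 0.12, Ptch1 from -0.22 to 1.03, Smad7 from -0.060 to 0.56, Sostdc1 from -1.81 to 0.35, Spry2 from -1.59 to 0.21 and Wnt10a from -0.095 to 0.43. Of these only Dst and Inhbb had been called; for Dst that filter takes another probe set, and the cause for the others was not tested. No count depth exists, and levels near 4 lie at the pseudocount, where differences are understated.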
